A study of Drosophila melanogaster with 6 samples.

Results

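The genes described here encode the proteins of the Drosophila mitochondrial ribosome. They were chosen by name, as every gene of the count table whose symbol begins with mRpL or mRpS followed by a digit. The rule took 73 of 17737 genes, of which 47 carry large subunit names (mRpL) and 26 carry small subunit names (mRpS). The rule uses names only.

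The mitochondrial ribosome translates the few mRNAs that are made from mitochondrial DNA, which encode core subunits of the respiratory chain and of ATP synthase. Its rRNAs also come from mitochondrial DNA, but its proteins are encoded in the nucleus, translated in the cytosol and imported. The small subunit reads the mRNA and the large subunit joins the amino acids. Some of its proteins have counterparts in bacterial ribosomes, and others belong to families found only in mitochondria.

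The libraries were made from PPL1-γ1pedc dopamine neurons (DANs), which innervate the heel region of the mushroom body, the learning centre of the fly brain. Each of the 6 libraries came from 25 GFP-positive cell bodies, picked by hand from pooled brains of 3rd instar larvae harvested from 120 h after egg laying. In the 3 Stromalin KD libraries, ΔTH-D'-GAL4 drove UAS-mCD8:GFP, UAS-dicer2 and a UAS-Stromalin RNAi transgene. In the 3 control libraries the same driver expressed UAS-mCD8:GFP and UAS-dicer2 without the RNAi transgene. Strong expression from this driver in the larval central brain is limited to these DANs. Stromalin (SA) is a subunit of cohesin, the ring complex that holds DNA strands together. Every library was collected on a day of its own, with the genotypes in alternation, so that p-values measure the spread between these collections. In such bulk samples, fewer cells of a type and less RNA per cell cannot be told apart.

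Total counts in genes ran from 8638734 to 9624935 in Stromalin KD and from 7790921 to 9625056 in control, and rRNA genes held 18.8% to 21.5% of them in Stromalin KD and 16.6% to 30.3% in control. SA itself had 3, 0 and 0 counts in Stromalin KD libraries 1, 2 and 3, against 0, 0 and 1372 counts in control libraries 1, 2 and 3, so that the knockdown could be checked against 1 control library only. All 8 pan-neuronal markers and 4 of 5 dopamine markers had at least 10 counts in each of the 6 libraries. Summed glial marker counts were 1617, 1056 and 0 in Stromalin KD and 3, 3824 and 62 in control. Of these, nrv2 gave 1187, 728 and 0 in Stromalin KD and 3, 3824 and 0 in control. Gs2, Eaat1 and moody were each found in 1 library, and repo, alrm, wrapper and gcm had 0 counts throughout. Fat body and blood cell markers summed to 3, 597 and 6005 counts in Stromalin KD and to 1, 10970 and 0 in control. Neuroblast markers summed to 0, 859 and 800 counts in Stromalin KD and to 0, 244 and 0 in control. These counts came from grh (0, 681 and 800 in Stromalin KD, 0, 244 and 0 in control) and CycE (178 in Stromalin KD library 2). The other neuroblast markers dpn, ase, wor, mira and insc had 0 counts throughout. Markers of other transmitters summed to 2548, 500 and 2230 counts in Stromalin KD and to 112, 0 and 617 in control. ChAT, Gad1, Tdc2 and Trh had 0 counts throughout, and VGlut reached 7 counts. SerT had 786 counts in Stromalin KD library 1, VAChT 486 in Stromalin KD library 3 and Tbh 617 in control library 3, with 0 elsewhere. VGAT, the vesicular GABA transporter, had 1762, 500 and 1737 counts in Stromalin KD and 112, 0 and 0 in control. Every Stromalin KD library thus lay above every control library for VGAT (unadjusted p = 0.216 by edgeR). Over all tested genes the groups did not overlap for 6.62%. The part of these other cell types in the results below was not tested. Across all tested genes the common coefficient of variation between libraries of a group was 228%.

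Most mitochondrial ribosomal protein genes, like most genes counted, were not found in these neurons at this depth. Those that were found turned up in few libraries. A gene was called found in a library where it had at least 10 counts. By that limit 29 of the 73 genes (39.7%) were found somewhere, 10 more reached 1 to 9 counts at most, and 34 had 0 counts in all 6 libraries. Of all genes 34.5% were found somewhere, and of the protein-coding genes 41.8%. A count of 0 allows up to 3 counts, or 0.312 to 0.385 CPM (counts scaled to a common library total) in a library. Reads copied from 1 molecule by PCR are not independent, so floors and bounds cover counting error only.

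None of the 73 genes was found in all 6 libraries, and none in exactly 5. Of the 29 found genes, 19 were found in exactly 1 library, 8 in 2, 1 in 3 (mRpL39) and 1 in 4 (mRpS9). Thus 65.5% of the found members were found in a lone library, against 33.2% of all 6127 found genes and 31.8% of the found protein-coding genes. Where a member was found, its median count was 178, against a median of 773 over all genes. The median share of a found member's counts that lay in its top library was 100%, against 75.8% over all found genes.

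**Figure D1:**
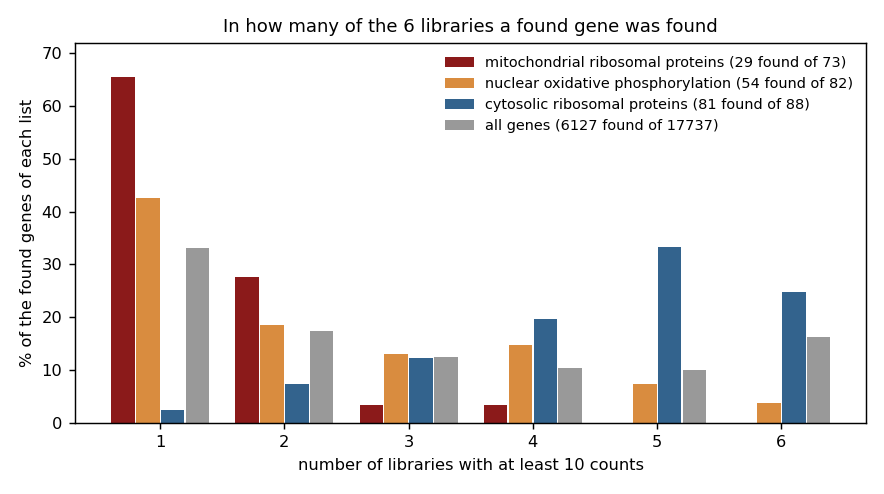
The share of found genes, in percent, is plotted by the number of libraries in which each gene was found (at least 10 counts), for the mitochondrial ribosomal protein genes, nuclear oxidative phosphorylation genes, cytosolic ribosomal protein genes and all genes. Of the 29 found members, 65.5% sit at 1 library and 0 sit at 6, whereas 24.7% of the found cytosolic ribosomal protein genes sit at 6.

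Other gene groups of translation and respiration were found more widely. Of 88 cytosolic ribosomal protein genes, which build the ribosomes outside mitochondria, 81 (92%) were found somewhere and 20 were found in all 6 libraries. Of 82 nuclear genes of oxidative phosphorylation, which encode respiratory chain and ATP synthase subunits, 54 (65.9%) were found somewhere, 42.6% of these in exactly 1 library and 2 of them in all 6. The 13 mRNAs encoded in mitochondrial DNA, which the mitochondrial ribosome translates, were all found, 8 of them in every library. On average a library held 9.59% of the mitochondrial ribosomal protein genes and 17% of all genes. Genes are not replicates of a condition, so these shares are descriptions.

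By library, 12, 7 and 6 members were found in Stromalin KD libraries 1, 2 and 3, against 5, 8 and 4 in control libraries 1, 2 and 3. The mean was 8.33 ± 3.21 in Stromalin KD and 5.67 ± 2.08 in control (SD, n = 3 each), and the groups overlapped. Without Stromalin KD library 1 the difference between the means was 0.833 genes in place of 2.67. The number of all genes found ran in a partly similar order, with 3732, 3197 and 2352 in Stromalin KD and 2535, 4004 and 2298 in control. As a share of all genes found, the members made up 0.322%, 0.219% and 0.255% in Stromalin KD and 0.197%, 0.2% and 0.174% in control. The groups did not overlap in this share at 10 counts, but they overlapped with limits of 1 count, 50 counts, 10 CPM outside rRNA genes or 1 TPM. Control library 2, which held the most glial, fat body and blood cell marker counts, also held the most members among the controls. It also had the most genes found of any library (4004). Stromalin KD library 1, with the most members of all, held 1617 glial and 3 fat body and blood cell marker counts.

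**Figure D2:**
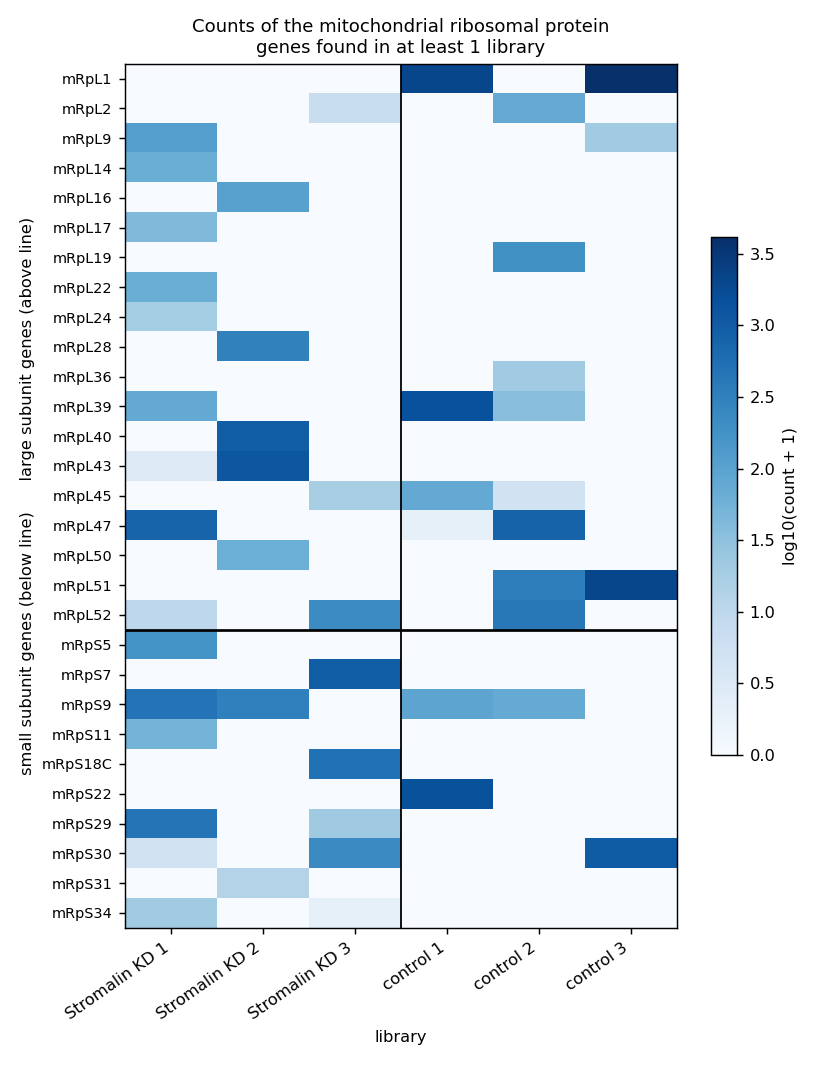
Counts of the members found in at least 1 library are shown by colour on a log scale, with 1 row per gene, large subunit genes above small subunit genes, and 1 column per library, Stromalin KD left of control. Filled cells are scattered, and no row is filled across all 6 columns.

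Libraries shared few of these genes. Pairs of libraries from the same group (6 pairs) had 0 to 2 found members in common, and pairs from different groups (9 pairs) had 0 to 3 in common. Expressed as a share of each library's found members, both kinds of pair ran from 0% to 40%. For all genes the shared fraction ran from 47% to 81.8% within a group and from 47.2% to 80.4% between groups. Pairs of Stromalin KD libraries had 0 or 1 found members in common, which was 0% to 16.7% of each library's found members. By range, Stromalin KD libraries thus resembled each other in these genes no more closely than a Stromalin KD and a control library did. Counted by group, 23 members were found in some Stromalin KD library and 13 in some control library, with 7 in both. The shared 7 are 30.4% of those found in Stromalin KD and 53.8% of those found in control, whereas over all genes the corresponding shares were 73.6% and 76%.

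Large and small subunit genes were found about equally often. Of the 47 large subunit genes 19 (40.4%) were found somewhere, and of the 26 small subunit genes 10 (38.5%). All 6 libraries had 0 counts for 22 large subunit and 12 small subunit genes. Averaged over the libraries, 9.57% of the large subunit genes and 9.62% of the small subunit genes were found, a difference of -0.0409 ± 7.5 percentage points (SD over 6 libraries). The large subunit share was the higher one in 3 libraries and the lower one in the other 3.

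Within single libraries the balance tipped either way. In Stromalin KD, 14.9%, 10.6% and 4.26% of the large subunit genes were found in libraries 1, 2 and 3, beside 19.2%, 7.69% and 15.4% of the small subunit genes. In control, 6.38%, 14.9% and 6.38% of the large subunit genes were found, beside 7.69%, 3.85% and 3.85% of the small subunit genes. Stromalin KD library 3 leaned furthest to the small subunit, by 11.1 points (large minus small, -11.1), and control library 2 furthest to the large subunit, by 11.0 points.

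The small subunit was the one in which the groups lay further apart. Small subunit genes found numbered 5, 2 and 4 in Stromalin KD and 2, 1 and 1 in control, with means of 3.67 ± 1.53 and 1.33 ± 0.577 (SD, n = 3 each), and the lowest Stromalin KD library tied with the highest control library. Large subunit genes found numbered 7, 5 and 2 in Stromalin KD and 3, 7 and 3 in control, with means of 4.67 ± 2.52 and 4.33 ± 2.31. Of the 10 small subunit genes found somewhere, 7 were found only in Stromalin KD and 1 only in control. Of the 19 large subunit genes found somewhere, 9 were found only in Stromalin KD and 5 only in control. Over all 6127 genes found somewhere, 1314 were found only in Stromalin KD and 1153 only in control. Whether the subunits differed in the effect of Stromalin KD was not tested.

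**Figure D3:**
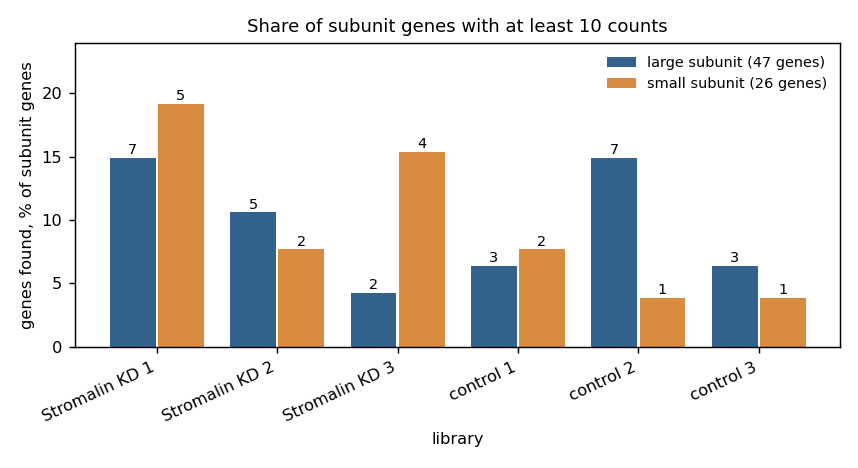
Bars give the share of the 47 large and of the 26 small subunit genes found in each library, in percent, Stromalin KD left of control, with the number of genes found above each bar. Both subunits lie under 20% in every library, and which of them is higher differs from library to library.

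Summed abundance also rested on a few genes. In TPM, a transcript level that adjusts for gene length and depth, the 73 members summed to 659.9, 1125 and 905 in Stromalin KD and to 1316, 805 and 2492 in control, with means of 897 ± 233 and 1538 ± 865 (SD, n = 3 each). The groups overlapped. Large subunit genes summed to 392, 1043 and 149 TPM in Stromalin KD and to 955, 787 and 2324 TPM in control. Small subunit genes summed to 268, 81.9 and 757 TPM in Stromalin KD and to 361, 18.7 and 167 TPM in control. Stromalin KD library 3 was thus the only library in which the small subunit held more TPM than the large one.

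A lone gene held 32.8% to 57.8% of the member counts in each library. It was mRpL47, mRpL43 and mRpS7 in Stromalin KD libraries 1, 2 and 3, and mRpL1, mRpL47 and mRpL1 in control libraries 1, 2 and 3. Without mRpL1 the summed level was 659.9, 1125 and 905 TPM in Stromalin KD and 794, 805 and 1300.5 TPM in control, so that the gap between the groups narrowed.

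**Figure D4:**
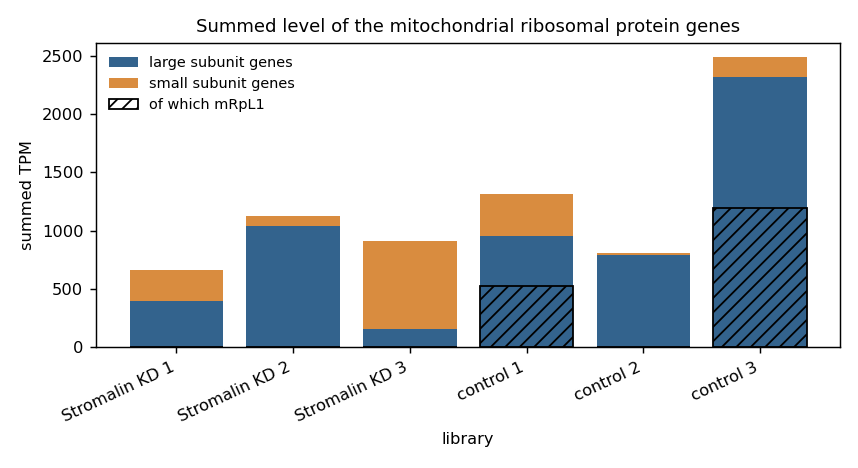
Summed TPM of the large and of the small subunit genes is drawn as stacked bars for each library, Stromalin KD left of control, with the part of mRpL1 hatched. Control library 3 reaches 2492 TPM, most of it from large subunit genes, and the other libraries lie between 659.9 and 1316 TPM.

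The gene with the highest mean level was mRpL1, the counterpart of the bacterial protein of the stalk that guides spent tRNA out of the ribosome. It lies at 8301440 to 8302770 on the plus strand of chromosome arm 3R (BDGP6). mRpL1 had 0 counts in each of the 3 Stromalin KD libraries, against 1969, 0 and 4164 counts in control libraries 1, 2 and 3. In normalized CPM, scaled by edgeR's TMM factors, control averaged 271 ± 270.1 (SD, n = 3) and Stromalin KD stood at 0, at least 2505-fold lower when the Stromalin KD group is given 3 counts in all. The bound was 1263-fold without control library 3 and 3758-fold without control library 2. The groups overlapped, since control library 2 also lacked the gene. The fitted log2 fold change was -14.23 ± 4.31 (SE), with an unadjusted p of 0.000975 and an adjusted p of 0.443 by edgeR's quasi-likelihood test, so that mRpL1 did not pass the threshold of 0.05. DESeq2 gave mRpL1 an adjusted p of 0.0145, past the threshold. mRpL1 was found in control only and thus had to differ, so its fold change and p-values are given as a description.

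mRpL51, a large subunit protein of a family found only in mitochondria, showed a like pattern. It lies at 8516753 to 8517380 on the minus strand of 2L. mRpL51 had 0 counts in all 3 Stromalin KD libraries, against 0, 329 and 2017 counts in control libraries 1, 2 and 3. Control averaged 97.7 ± 143 normalized CPM and Stromalin KD stood at 0, at least 902-fold lower. That bound rests mainly on control library 3 and was 145-fold without it. The edgeR fit gave a log2 fold change of -12.76 ± 5.9 (SE), with an unadjusted p of 0.0306 and an adjusted p of 0.809, and DESeq2 gave an adjusted p of 0.0257. As mRpL51 was also found in control only and had to differ, these values are a description too. Control library 3, the only library in which SA was found, held the highest counts of both mRpL1 and mRpL51, and control library 2 is the one in which mRpL51 was found and mRpL1 was not.

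Over all members, 10 of the 73 had at least 10 counts in at least 2 libraries and were tested among 4093 genes. By edgeR 0 of the 10 passed an adjusted p of 0.05, against 0.0489% of all tested genes (2 genes). At an unadjusted p under 0.05 there were 2 members, mRpL1 and mRpL51, both lower in Stromalin KD, against 3.23% of all tested genes in either direction and 1.59% lower. No member was higher at that limit by this test, against 1.64% of all tested genes, although mRpS29 passed it by DESeq2 (unadjusted p = 0.00697) and by edgeR's likelihood ratio test (unadjusted p = 0.046). The groups did not overlap for 0 of the 10, against 6.62% of all tested genes. DESeq2 gave an adjusted p to 5 members and called 2 of them, mRpL1 and mRpL51, against 5.46% of 2930 genes in either direction and 2.32% lower. Since 3 of the 10 tested members were found in one group only and thus had to differ, these counts are given as a description.

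**Figure D5:**
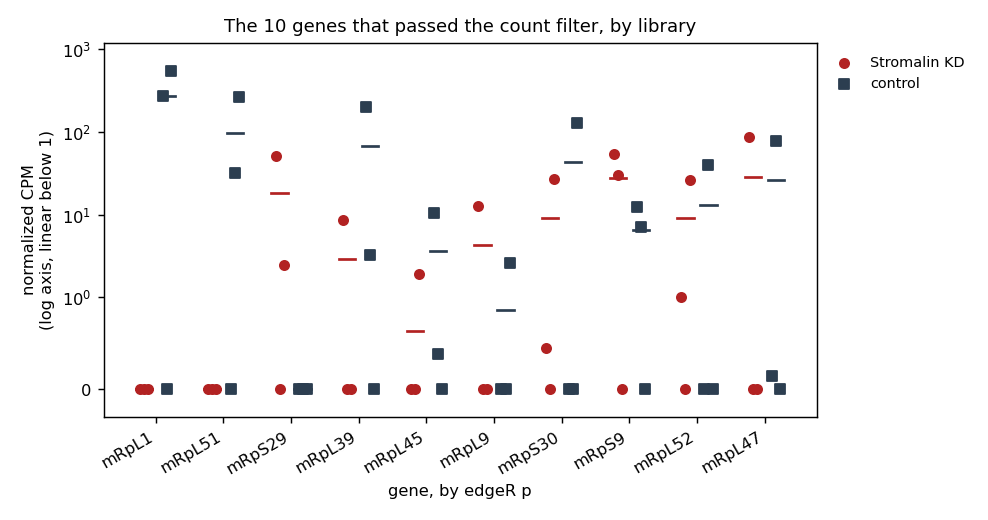
Normalized CPM of the 10 tested members is plotted for each library on a log axis that is linear below 1, with Stromalin KD (circles) left of control (squares), a short line at each group mean and the genes ordered by edgeR p. In each of the 10 genes at least 1 library of either group sits at 0, and for mRpL1 and mRpL51 all 3 Stromalin KD libraries do.

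Of the 10 tested members 4 had fitted values above 0 and 6 below. Their median log2 fold change was -1.39, beside 0.07 over all tested genes, and the median size without sign was 2.39, beside 1.59. The sign of the median depended on the members and libraries kept and on the model. It was 2.02 with DESeq2 and 2.48 without a count filter (39 members each), and 5.61 over the 29 found members. With the replicate block it was 0.04 over 10 members, and without control library 1 it was 0.2. The 7 tested large subunit genes had a median of -2.50 and the 3 tested small subunit genes a median of 2.11. The standard errors of the 10 genes ran from 4.0 to 5.9 log2 units.

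mRpS29, whose mammalian counterpart DAP3 binds GTP, was the tested small subunit gene found in Stromalin KD only. It lies at 22418937 to 22420376 on the minus strand of 2R. mRpS29 had 458, 0 and 21 counts in Stromalin KD libraries 1, 2 and 3, against 0 counts in every control library. Stromalin KD averaged 18.1 ± 29.2 normalized CPM, at least 153-fold higher than control with 3 counts given to the control group. That bound rests on Stromalin KD library 1 and was 10.5-fold without it. The groups overlapped at 0, and the test was not passed (log2 fold change 10.32 ± 5.81 SE, unadjusted p = 0.0756, edgeR adjusted p = 0.809, DESeq2 adjusted p = 0.0884). As mRpS29 was found in Stromalin KD only and had to differ, these values are given as a description. mRpS29 shares 65 exonic bases with qkr58E-2 on the opposite strand, which had 186, 1590 and 2659 counts in Stromalin KD and 772, 812 and 0 in control.

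mRpS9, whose bacterial counterpart reaches with its tail towards the tRNA site of the small subunit, was the most widely found member. mRpS9 had 477, 316 and 0 counts in Stromalin KD libraries 1, 2 and 3, against 89, 74 and 0 counts in control libraries 1, 2 and 3. It averaged 28.1 ± 27.1 normalized CPM in Stromalin KD and 6.48 ± 6.21 in control. Library 3 of either group lacked the gene, so the groups overlapped (log2 fold change 2.11 ± 4.55 SE, unadjusted p = 0.642 by edgeR). mRpS9 spans 7889277 to 7902667 on the minus strand of 3R and shares 325 exonic bases with ArgRS-m on the opposite strand. ArgRS-m, a mitochondrial aminoacyl-tRNA synthetase gene, had 143, 64 and 0 counts in Stromalin KD and 0, 634 and 0 in control. No source used here states the strand setting of the counting, so reads from this overlap cannot be told apart.

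mRpS30 was the remaining tested small subunit gene by name, although its mammalian counterpart sits in the large subunit. mRpS30 had 4, 0 and 224 counts in Stromalin KD libraries 1, 2 and 3, against 0, 0 and 997 counts in control libraries 1, 2 and 3. The means were 9.01 ± 15.2 normalized CPM in Stromalin KD and 43.1 ± 74.7 in control, with overlapping groups (log2 fold change -2.26 ± 4.50 SE, unadjusted p = 0.616 by edgeR).

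mRpL39 and mRpL47 were the other abundant tested genes of the large subunit. mRpL39 had 77, 0 and 0 counts in Stromalin KD libraries 1, 2 and 3, against 1435, 34 and 0 counts in control libraries 1, 2 and 3. Almost all of its signal came from control library 1, with means of 2.90 ± 5.03 normalized CPM in Stromalin KD and 67.6 ± 114 in control. Its log2 fold change of -4.53 ± 4.83 (SE, unadjusted p = 0.348 by edgeR) became 0.83 without control library 1. mRpL47, the counterpart of a bacterial protein at the mouth of the tunnel through which the new peptide leaves, had 766, 0 and 0 counts in Stromalin KD and 1, 815 and 0 in control. It was found in 1 library of either group at nearly the same level, 28.9 ± 50 normalized CPM in Stromalin KD and 26 ± 45 in control, with a log2 fold change of 0.15 ± 4.28 (SE, unadjusted p = 0.972 by edgeR).

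The other 3 tested genes, mRpL9, mRpL45 and mRpL52, were lower in level. mRpL45, whose mammalian counterpart lies at the tunnel mouth and contacts the inner membrane, had 0, 0 and 16 counts in Stromalin KD and 76, 4 and 0 in control (log2 fold change -2.50 ± 4.0 SE, unadjusted p = 0.531 by edgeR). mRpL9, with a counterpart in bacteria, had 112, 0 and 0 counts in Stromalin KD and 0, 0 and 20 in control (log2 fold change 2.27 ± 4.04 SE, unadjusted p = 0.574 by edgeR). mRpL52, of a mitochondrial family, had 9, 0 and 221 counts in Stromalin KD and 0, 411 and 0 in control (log2 fold change -0.53 ± 4.34 SE, unadjusted p = 0.903 by edgeR). Each of the 3 was found in 1 library of either group.

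The highest mean levels per length were those of mRpL1 (286 TPM over the 6 libraries), mRpL51 (215 TPM), mRpL47 (90.2 TPM), mRpL43 (80.9 TPM), mRpL39 (73.1 TPM) and mRpL40 (69.7 TPM), all large subunit genes. These means average a few high libraries with zeros. mRpL1 stood at 0, 0 and 0 TPM in Stromalin KD and at 522, 0 and 1191 TPM in control. mRpL51 stood at 0, 0 and 0 TPM in Stromalin KD and at 0, 166 and 1121 TPM in control. mRpL43 and mRpL40, both of mitochondrial families, came from Stromalin KD library 2 almost alone, at 484 and 418 TPM in that order. The spread of each gene over libraries was wider than the gap to its neighbour in this order.

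The 19 members found in exactly 1 library had 12 to 1404 counts there, with a median of 72, beside 232 over all genes found in 1 library. Of the 19, 16 had 0 counts in the other 5 libraries. mRpS22, of a mitochondrial small subunit family, was the highest, with 0 counts in each Stromalin KD library and 1404, 0 and 0 counts in control libraries 1, 2 and 3. It was at least 601-fold lower in Stromalin KD by group mean of normalized CPM, a bound that rests on control library 1 alone. mRpS22 was the only member with at least 1000 counts in 1 library and 0 elsewhere, a pattern shared by 271 genes of the table.

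Stromalin KD library 1 alone gave 7 of the 19, namely mRpL14, mRpL17, mRpL22, mRpL24, mRpS5, mRpS11 and mRpS34, with 18 to 169 counts. Stromalin KD library 2 alone gave 6, among them mRpL43 (1189 counts), mRpL40 (939 counts) and mRpL28 (306 counts), beside mRpL16, mRpL50 and mRpS31. Stromalin KD library 3 alone gave mRpS7 (945 counts), whose bacterial counterpart helps to build the head of the small subunit, and mRpS18C (510 counts), one of several S18 genes. Control library 2 alone gave mRpL2, mRpL19 and mRpL36 with 20 to 186 counts, control library 1 alone gave mRpS22, and control library 3 alone gave 0. The bacterial counterpart of mRpL2 lies beside the peptidyl transferase centre, where peptide bonds form. These genes are named after their values were seen, and the pattern has no replicate check because each was seen once.

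Among the 10 members that never reached 10 counts were mRpL3, mRpL32, mRpS2 and mRpS18A. mRpL3, whose bacterial counterpart helps to shape the peptidyl transferase centre, had 5 counts in Stromalin KD library 3 and 0 elsewhere. mRpL32 had 9 counts in control library 1 and 0 elsewhere. Genes with 0 counts in all 6 libraries included mRpL10, mRpL11 and mRpL12, which in bacteria form or anchor the stalk that binds translation factors. At this depth, absence of these transcripts and loss of them before counting cannot be told apart.

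Members were also split by their family, a grouping added after the values were seen. Of 44 members grouped here with counterparts in bacteria 17 (38.6%) were found, and of 29 grouped under mitochondrial families 12 (41.4%). mRpS28, which was not found, was counted with the mitochondrial families, and another placement of it would change both shares. The bacterial families had 9, 3 and 2 found genes in Stromalin KD and 2, 5 and 2 in control. The mitochondrial families had 3, 4 and 4 found genes in Stromalin KD and 3, 3 and 2 in control. Stromalin KD library 1 was the library with the most genes of bacterial families.

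Gene length and position were read from the BDGP6 annotation, which holds 72 of the 73 members (mRpS5 was not matched). Found members had a median exonic length of 945 bases, from 495 to 2078, and members not found had 736 bases, from 327 to 1696. The same direction held over all protein-coding genes, where the medians were 2701 bases for found and 1319 for not found genes. Large and small subunit genes were alike in length, with medians of 790 and 729 bases. Found genes made up 4 of 12 members on 2L, 3 of 12 on 2R, 7 of 16 on 3L, 10 of 21 on 3R and 4 of 11 on X. Of the 29 found members, 18 share exonic bases with another gene, as do 25 of the 44 not found. Only mRpL13, mRpL53 and mRpS14 share them with a gene on the same strand, and none of these was found. mRpL53 shares all of its 829 exonic bases with CG33155 on the same strand. How reads in shared bases were assigned is not stated in the sources used here. Absence of mRpL53 and loss of its reads to that overlap thus cannot be told apart.

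Other nuclear genes that serve mitochondrial translation were also found in few libraries, except the aminoacyl-tRNA synthetases. tko and bonsai encode small subunit proteins whose names fall outside the naming rule. bonsai had 0, 19 and 860 counts in Stromalin KD and 0 in every control library (log2 fold change 11.26 ± 6.18 SE, unadjusted p = 0.0686, edgeR adjusted p = 0.809), and tko reached 9 counts at most. Of 9 mitochondrial translation factor genes 6 were found, 2 were tested and 0 had an unadjusted p under 0.05. mIF2, the initiation factor that brings the first tRNA, had 1358, 1 and 20 counts in Stromalin KD and 0 in control (unadjusted p = 0.0586, edgeR adjusted p = 0.809). Both bonsai and mIF2 were at 0 throughout control and thus had to differ, so their test values are given as a description. Of 10 genes of mitochondrial transcription and RNA stability 3 were found and 1 was tested, mtRNApol, the mitochondrial RNA polymerase, with 56, 0 and 0 counts in Stromalin KD and 0, 700 and 936 in control (unadjusted p = 0.324 by edgeR).

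Mitochondrial aminoacyl-tRNA synthetases, which charge the tRNAs used by this ribosome, were found more widely. Of 15 genes 10 were found, 20% of these in exactly 1 library, and a library held 30% of the list on average, against 9.59% of the members. AspRS-m was found in all 6 libraries, with 490, 1752 and 10 counts in Stromalin KD and 954, 2623 and 6674 in control (unadjusted p = 0.202 by edgeR). Of the 8 tested, an unadjusted p under 0.05 by edgeR was reached by 1 in each direction. Over all tested genes 1.64% were higher and 1.59% lower at that limit. DESeq2 called 3 of the 6 to which it gave an adjusted p, 2 higher and 1 lower, against 5.46% of all genes. The 3 called genes were each found in one group only and thus had to differ, so these counts are given as a description. SerRS-m had 346, 10 and 5004 counts in Stromalin KD and 0 in every control library (log2 fold change 13.87 ± 4.80 SE, unadjusted p = 0.00384, edgeR adjusted p = 0.683, DESeq2 adjusted p = 0.00698). CysRS-m had 0 counts in every Stromalin KD library and 0, 167 and 1647 in control (log2 fold change -12.40 ± 6.14 SE, unadjusted p = 0.0434, edgeR adjusted p = 0.809, DESeq2 adjusted p = 0.027). ValRS-m had 133, 1288 and 61 counts in Stromalin KD and 1, 0 and 0 in control (edgeR adjusted p = 1, DESeq2 adjusted p = 0.0257).

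Over all tested genes, 1.64% were higher and 1.59% lower in Stromalin KD at an unadjusted p under 0.05 by edgeR. Of 11 tested mRNAs encoded in mitochondrial DNA, 1 was higher in Stromalin KD at that limit and 0 were lower. It was mt:CoI, a core subunit of cytochrome oxidase, with 187103, 59967 and 122769 counts in Stromalin KD and 83094, 91090 and 69407 in control (log2 fold change 0.50 ± 0.23 SE, unadjusted p = 0.0275, edgeR adjusted p = 0.809, DESeq2 adjusted p = 1). Of 31 tested nuclear genes of oxidative phosphorylation, 1 was higher and 1 lower at that limit. DESeq2 called 2 of 20, both lower, against 2.32% lower over all genes to which it gave an adjusted p. ND-51, a complex I subunit, had 121, 26 and 2731 counts in Stromalin KD and 0 in every control library (unadjusted p = 0.0245, edgeR adjusted p = 0.809). COX7C, a cytochrome oxidase subunit, had 0 counts in every Stromalin KD library and 0, 884 and 995 in control (unadjusted p = 0.0466, edgeR adjusted p = 0.809, DESeq2 adjusted p = 0.027). ND-B17.2, of complex I, had 0 counts in every Stromalin KD library and 205, 1509 and 0 in control (unadjusted p = 0.0536, edgeR adjusted p = 0.809, DESeq2 adjusted p = 0.0338). ND-51, COX7C and ND-B17.2 were thus each at 0 throughout one group and had to differ, so these counts are given as a description.

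Of 79 tested cytosolic ribosomal protein genes, 2 were lower and 0 higher in Stromalin KD at an unadjusted p under 0.05 by edgeR. Over all tested genes 1.59% were lower and 1.64% higher at that limit. DESeq2 called 0 of 63, against 5.46% over all genes to which it gave an adjusted p. RpLP0, of the stalk that binds translation factors, had 1414, 4 and 333 counts in Stromalin KD and 6040, 6191 and 6052 in control (log2 fold change -3.47 ± 1.53 SE, unadjusted p = 0.023, edgeR adjusted p = 0.809, DESeq2 adjusted p = 0.755). RpL34b had 4, 0 and 0 counts in Stromalin KD and 3614, 14 and 0 in control, nearly all from control library 1 (unadjusted p = 0.0356, edgeR adjusted p = 0.809). As RpL34b was found in control only and thus had to differ, the count of lower genes is given as a description. No gene of these 3 lists passed an adjusted p of 0.05 by edgeR.

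The rRNAs of the mitochondrial ribosome were abundant in every library. mt:srRNA, the rRNA of the small subunit, stood at 2565, 760.3 and 320.2 normalized CPM in Stromalin KD libraries 1, 2 and 3, against 85.2, 161 and 111 normalized CPM in control libraries 1, 2 and 3. Every Stromalin KD library lay above every control library, with means of 1215 ± 1189 and 119 ± 38.7 (SD, n = 3 each). The groups did not overlap for 6.62% of all tested genes. The log2 fold change was 3.35 ± 1.17 (SE) with an unadjusted p of 0.00413 by edgeR. The edgeR adjusted p of 0.69 and the DESeq2 adjusted p of 0.721 missed the threshold. mt:lrRNA, the rRNA of the large subunit, stood at 5694, 801 and 838 normalized CPM in Stromalin KD and at 1077, 404 and 598 in control, and the groups overlapped (log2 fold change 1.82 ± 0.72 SE, unadjusted p = 0.0111, edgeR adjusted p = 0.809). DESeq2 called neither rRNA. Both rRNAs were highest in Stromalin KD library 1, the library with the most members found. Ribosomal RNA was depleted with probes during library preparation, and the part of that step in these levels was not tested.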

How the data were processed

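RNA-seq libraries of PPL1-γ1pedc DANs (3 Stromalin KD, 3 control, 25 neurons each) were grouped by the genotype in their labels. They were prepared with the NuGEN Ovation SoLo kit with rRNA depletion. RNA quality was not analysed here. The authors deposited raw counts for 17737 genes, and HTSeq 0.9.1, DESeq2 and BDGP6 are named in the submitters' processing notes. Aligner, strand setting and molecular identifiers: not given in the sources used here. One deposited table of signal holds the counts divided by the authors' size factors and served only to check the counts. Deposited TPM values were used for levels between genes. A deposited table of the authors' own comparison (base mean, log2 fold change, standard error, statistic, p, adjusted p) was not used.

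A gene was tested if 2 or more of the 6 libraries had 10 counts or more, with edgeR 4.0.16 in R 4.3.3 (TMM, quasi-likelihood test, two-sided, Benjamini-Hochberg adjustment over all 4093 tested genes, threshold 0.05). Normalized CPM were computed with TMM-scaled library sizes, and standard errors from each fold change and its test statistic. Depth ranged from 7790921 to 9625056 counts. A group at 0 was given a floor of 3 counts in all for fold bounds. Gene positions, lengths and overlaps came from Ensembl release 115 (BDGP6.54). Members and lists were chosen with earlier results of these data known. Of the names in the lists 2 matched no gene and were left out. Named members are the 6 with the highest mean TPM, those called by edgeR or DESeq2, the 5 per direction with the smallest unadjusted p, and those with at least 1000 counts in 1 library and 0 elsewhere. No member qualified as found in all 6 libraries or as not overlapping between groups. Others are named after their values were seen. From the other lists, genes with an unadjusted p under 0.05 or called by DESeq2 were named, and bonsai, tko, mIF2, mtRNApol, AspRS-m and VGAT were added after their values were seen.

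Alternatives were DESeq2 1.42.0, the edgeR likelihood ratio test, RLE and TMMwsp factors, total counts only, library size without rRNA genes, the replicate number as a block, other count filters, limma 3.58.1 on log2(TPM + 1) and log2(TPM + 0.1), other detection limits, and leaving out each library. Leaving out each library in DESeq2 and for fold bounds, and counting mRpS30 and mRpS18A with the large subunit, were chosen after seeing the data.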

Additional observations from a re-analysis of the deposited data

How the results depend on the processing

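By edgeR 0 members passed an adjusted p of 0.05, and 0 passed under every alternative except DESeq2, which called 2 (mRpL1 and mRpL51), and DESeq2 leaving out each library in turn, which called 4 (without control library 1), 5 (without control library 2 or 3), 6 (without Stromalin KD library 2 or 3) and 7 members (without Stromalin KD library 1) among 700 to 816 genes called in all. Of the member calls, 2 to 5 in each fit were of members found in a lone library. How many genes got an adjusted p in these fits is not given here, so these calls cannot be set against a share of all genes. The count at an unadjusted p under 0.05, 2 by edgeR, was 0 with a filter of 10 counts in 3 libraries and with limma on log2(TPM + 0.1), 1 with limma on log2(TPM + 1), 1 with the replicate block, 3 with DESeq2 and with the likelihood ratio test (mRpS29 added, higher), and 0 to 1 leaving out each library, 0 without control library 3 and 1 without each other. Part of this loss came from genes leaving the test. The filter of 10 counts in 3 libraries tested 2 members, mRpL39 and mRpS9. mRpL1 was not tested without control library 1 or 3, nor mRpL51 without control library 2 or 3. Where they were fitted leaving out a library, mRpL1 ran from -14.76 to -14.15 and mRpL51 from -13.39 to -12.61. The median log2 fold change of tested members, -1.39, moved to 5.61 with a filter of 10 counts in 1 library, which tested all 29 found members, to 2.02 with DESeq2, 2.48 with no count filter and 0.04 with the block, and ran from -2.83 to 0.2 leaving out each library. Replicate numbers do not stand for a shared day, and deviations of same-numbered libraries correlated at -0.0202, -0.00977 and 0.0246. Fitted directions reversed as follows, and the cause was not tested. mRpL47 (0.15) became -0.01 with the replicate block, -0.2 and -0.78 with limma on log2(TPM + 1) and log2(TPM + 0.1), and -0.43 without control library 1 or 3, in a range of -0.43 to 0.81 leaving out each library. mRpS30 (-2.26) became 0.48 with the block and 0.21 with log2(TPM + 0.1). mRpL52 (-0.53) became 5.69 with the block, 0.61 and 1.64 with the limma fits, and 0.06 and 0.12 without Stromalin KD library 1 and 2, in a range of -1.12 to 0.12. mRpL39 (-4.53) became 0.83 without control library 1, in a range of -12.31 to 0.83. The difference in members found, 2.67 genes, ran from 0.833 to 3.83 leaving out each library, and the subunit difference in share found, -0.0409 points, ran from -2.26 to 2.18. With mRpS30 and mRpS18A counted in the large subunit it was 0.836 points. Depth and the spread of 3 libraries a group limit all of these values.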
